A study of Caenorhabditis elegans with 4 samples.

Results

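The genes described here are 7 chromatin genes of Caenorhabditis elegans: the histone deacetylase genes hda-1, hda-2, hda-3, hda-4 and hda-6 and the heterochromatin protein genes hpl-1 and hpl-2, out of 19973 protein-coding genes on the 6 nuclear chromosomes. They were chosen by family, with their signals in these lists of regions already known, so all of their values are given as a description and none was tested. The data are from chromatin immunoprecipitation with sequencing of hermaphrodite late embryos, whole animals of unstated age. All 4 libraries (2 biological replicates with 2 technical libraries each) come from strain OP372, which carries unc-119(tm4063) III and the integrated transgene wgIs372, the source of K09A11.1 with GFP and FLAG at its C terminus. Chromatin was recovered with an antibody against GFP. There is 1 group only, with no second strain, stage or treatment to compare with. The strain is a single transgenic line, and the labels do not say in which cells the tagged protein is made. Whole animals were used, so the lists do not show which cells carry a region.

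Histone deacetylases remove acetyl groups from histone tails, a change associated with reduced transcription. HDA-1, HDA-2 and HDA-3 belong to class I of these enzymes, and HDA-1 acts in several repressor complexes during worm development. HDA-4 is of class II and resembles mammalian HDAC4, and HDA-6 resembles mammalian HDAC6, a deacetylase known for acting on tubulin. HPL-1 and HPL-2 are the worm counterparts of heterochromatin protein 1, a chromodomain protein that binds histone H3 methylated at its ninth residue, a lysine.

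The lists cover genome build ce11. The pooled list, the replicate 1 list and the replicate 2 list hold 30000 candidate regions each, ranked here by the authors' signal value with rank 1 the highest. The thresholded list, kept for reproducibility of ranks, holds 689 peaks, and these are the 689 highest regions of the pooled list. Every region lies inside its chromosome of the reference. The depth of the libraries is unknown and the replicate lists are not scaled to each other, so signals are given per list, without a mean or an SD. A single control served both replicates. A promoter window covered the 1000 bp before and the 200 bp after each annotated 5' end of a protein-coding gene, and a region was placed by its summit.

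Of the members, hda-1 and hpl-1 carried a thresholded peak in the promoter window, 2 of 7 genes, where 2.49% of all protein-coding genes did. A promoter region of any rank was present at 4 of 7 members in the pooled list (42.2% of all genes), at 5 of 7 in the replicate 1 list (41.5%) and at 3 of 7 in that of replicate 2 (42.5%). In both replicate lists it was present at hda-1 and hpl-1 alone among the members, 2 of 7, against 23.6% of all genes. Since the members were chosen with these lists known, nothing is read from the difference between these shares. The lowest thresholded signal was 30.4, and the signals of the strongest promoter region were 59.4 at hda-1 and 32.4 at hpl-1, inside it, and 14.6 at hpl-2 and 11.5 at hda-2, outside it. The promoter windows of hda-3, hda-4 and hda-6 held no region of the pooled list.

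**Figure D1:**
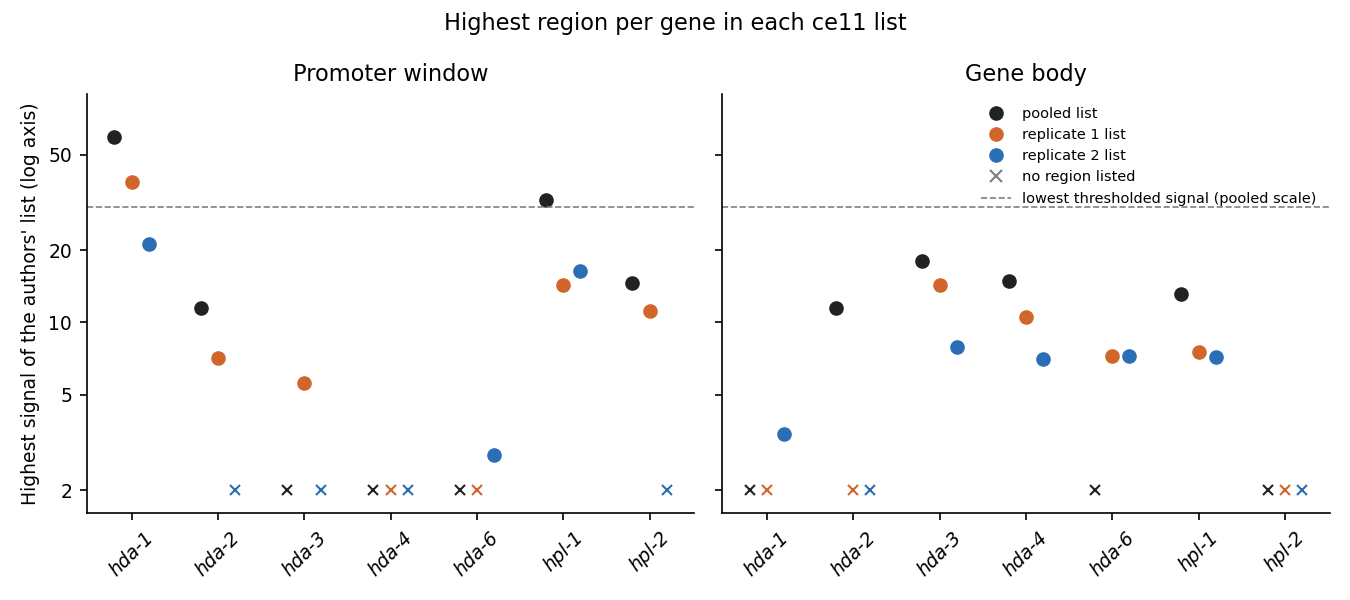
Highest signal of each member in the promoter window (left) and in the gene body (right), one point for each of the pooled, replicate 1 and replicate 2 lists on a log axis; a cross marks a list with no region there. Only hda-1 and hpl-1 have promoter points in all of the lists, and no gene-body point reaches the lowest thresholded signal of 30.4, which applies to the pooled list.

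The strongest region of the family was the one upstream of hda-1. The gene lies on chromosome V from 14525389 to 14527411 on the plus strand, and the peak covered 14524272 to 14524611 with its summit at 14524442. Its signal was 59.4 in the pooled list (rank 208), 38.3 in the replicate 1 list (rank 225) and 21.1 in that of replicate 2 (rank 219). The rank was thus nearly the same in both replicates, although the signal value was 1.81 times as high in replicate 1. That ratio is close to the median of 1.78 over the 341 thresholded promoter peaks with a region within 100 bp in both replicate lists. The replicate summits lay 48 bp (replicate 1) and 3 bp (replicate 2) from the pooled one. Of the 8429 genes with a pooled promoter region, 1.73% had a higher signal, and the values were 1.74% for replicate 1 and 1.83% for replicate 2.

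The hda-1 peak sits at the far edge of its promoter window, and it can be assigned to other genes as well. Its summit was 947 bp upstream of the hda-1 5' end. Over the 498 genes with a thresholded promoter peak the median was 262.5 bp upstream. Of these genes, 10 (2.01%) had their strongest peak as far upstream as that of hda-1 or farther. The window ends at 1000 bp upstream and peaks beyond it are not counted, so this share is limited by the window. In the replicate 1 list the summit was 995 bp upstream, just inside the window. The neighbouring gene ril-1, at 14523330 to 14524129, is transcribed in the opposite direction, and its 5' end was only 313 bp from the summit. The summit also lay inside C53A5.18, a noncoding RNA gene annotated at 14524351 to 14524500 on the minus strand. With a window of 500 bp upstream to 100 bp downstream, or with each peak given only to the nearest 5' end, hda-1 had no thresholded peak. Sharing of this kind was common, since 281 of the 498 genes (56.4%) had a strongest peak that also lay in another gene's promoter window. The gene body of hda-1 held no pooled region, and the replicate 2 list alone had an exonic one of signal 3.44 (rank 21865).

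The hpl-1 peak, in contrast, was centred on the start of the gene and fell in no other protein-coding promoter window. The gene lies on chromosome X from 13245390 to 13247044 on the plus strand, and the peak covered 13245187 to 13245526 with its summit at 13245357, 33 bp upstream of the annotated 5' end. Only 11 of the 498 genes (2.21%) had their strongest thresholded peak that close to a 5' end. The signal was 32.4 in the pooled list (rank 623), 14.3 in the replicate 1 list (rank 1682) and 16.4 in that of replicate 2 (rank 383). Replicate 2 thus had the higher value here, with a ratio of replicate 1 to replicate 2 of 0.876. A ratio under 1 was found for 48 of the 341 matched promoter peaks (14.1%). The peak lay near the threshold, with a −log10 q of 2.396 where the thresholded list starts at 2.393. Among the 689 highest regions of replicate 1 alone the hpl-1 promoter had none, and among those of replicate 2 alone it had this peak. The summit of replicate 1 was 89 bp and that of replicate 2 was 3 bp from the pooled one. The replicate 1 list also split the promoter into 3 regions, with the weaker ones at 512 bp upstream (signal 7.07) and 162 bp downstream (signal 5.52).

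**Figure D2:**
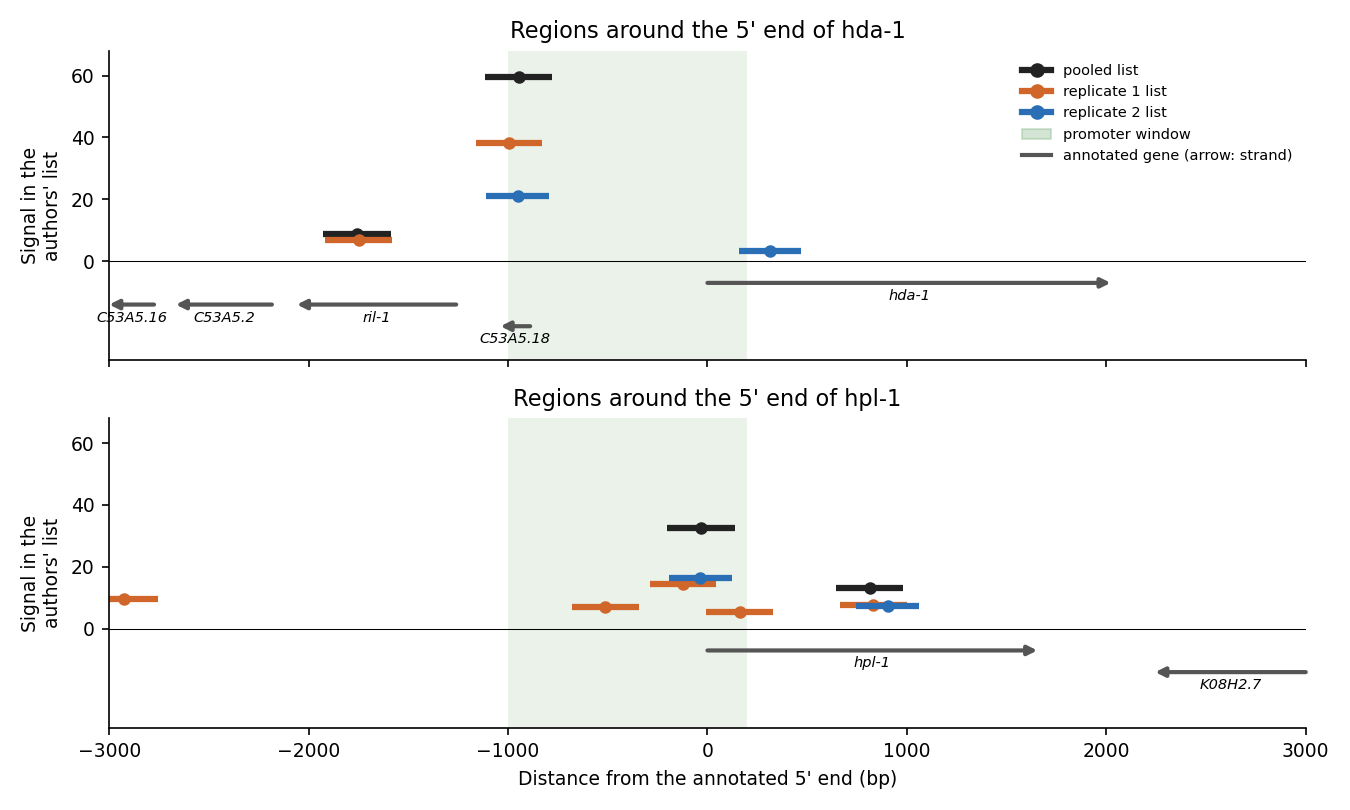
Regions of the pooled, replicate 1 and replicate 2 lists (bars, summit as a dot) by their signal (vertical axis) and distance from the 5' end in bp, around hda-1 (top) and hpl-1 (bottom), with annotated genes as arrows and the promoter window shaded. The strongest hda-1 region of each list lies at the far edge of the window, over C53A5.18 and on the side of ril-1. The strongest hpl-1 region of each list lies at its own 5' end. Weaker regions are drawn at other places around both genes.

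The sequence at the summits is shown for the 4 members with a pooled promoter region, to set both thresholded sites beside the weaker ones. Each line gives 201 bases of ce11 centred on the pooled summit, read 5' to 3' on the strand of the gene: chrV:14524342-14524542 plus strand for hda-1, chrX:13245257-13245457 plus strand for hpl-1, chrIII:10756080-10756280 minus strand for hpl-2 and chrII:8022455-8022655 minus strand for hda-2. Capitals mark, on either strand, the words GAGAG (a repeat bound by GAGA factor in Drosophila), TATAAA (the TATA box), CACGTG (the E-box), CGATA (part of the site of a Drosophila boundary protein), and also CGCGCA with its shifted form GCGCAC, then CGAACC, and lastly TTAAAA.
hda-1: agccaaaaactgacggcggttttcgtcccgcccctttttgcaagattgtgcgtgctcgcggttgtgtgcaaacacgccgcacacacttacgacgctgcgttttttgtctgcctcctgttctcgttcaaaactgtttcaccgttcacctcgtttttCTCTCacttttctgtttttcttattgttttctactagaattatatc
hpl-1: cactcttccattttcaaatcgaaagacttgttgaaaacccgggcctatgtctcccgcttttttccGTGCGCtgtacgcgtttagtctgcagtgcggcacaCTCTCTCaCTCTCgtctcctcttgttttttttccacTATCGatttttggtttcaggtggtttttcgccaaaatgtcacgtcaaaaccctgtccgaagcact
hpl-2: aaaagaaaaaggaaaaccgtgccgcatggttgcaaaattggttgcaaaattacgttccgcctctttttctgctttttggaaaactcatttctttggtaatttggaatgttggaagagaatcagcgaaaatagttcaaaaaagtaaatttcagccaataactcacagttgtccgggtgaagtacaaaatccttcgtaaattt
hda-2: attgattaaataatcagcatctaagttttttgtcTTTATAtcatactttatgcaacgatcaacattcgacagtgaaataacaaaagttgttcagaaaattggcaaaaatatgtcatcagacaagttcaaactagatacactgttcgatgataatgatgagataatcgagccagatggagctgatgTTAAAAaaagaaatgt

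Both thresholded sites held GAGAG on the strand opposite to the gene, within pyrimidine-rich sequence, and the weaker sites did not hold it. In windows of 201 bases GAGAG occurred at 54.6% of the 663 nuclear thresholded summits and just upstream of 29.6% of the 19973 protein-coding genes. The hpl-1 window also held GCGCAC (17.9% of summits, 4.08% of promoters) and CGATA (20.97% of summits, 21.9% of promoters). TTAAAA (23.8% of summits, 49.4% of promoters) and TATAAA (11.01% of summits, 30.5% of promoters) occurred at hda-2 alone. None of the 4 windows held CGCGCA (17.8% of summits, 4.27% of promoters), CGAACC (18.1% and 2.16%) or CACGTG (4.07% and 4.23%), and hpl-2 had no word of the set. CGCGCA and GCGCAC can overlap each other, and their choice and that of CGAACC and TTAAAA rests on earlier results of these data. The GC content of the windows was 45.8% at hda-1, 46.8% at hpl-1, 35.8% at hpl-2 and 30.3% at hda-2, beside medians of 45.3% over the thresholded summits and 32.8% over the promoters. At hpl-1 the windows 400 bp to the left and right had 30.8% and 39.8%, while at hda-1 they had 50.2% on the side of ril-1 and 31.8% on the side of hda-1. In each window the 170 words of 32 bases were all found at that place alone in the genome.

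The hpl-1 gene lies near the tagged gene, and integrated transgenes can carry DNA from around a tagged gene, so the regions of that neighbourhood were counted. The 5' ends of hpl-1 and K09A11.1 are 17105 bp apart. Whether the transgene includes hpl-1 is not given in the sources used here. If it does, extra copies of that DNA could raise the hpl-1 signal of 32.4, which is just above the lowest thresholded signal of 30.4, and their part in it was not tested. K09A11.1 itself had no region in its promoter window or gene body in any of the lists. The pooled region nearest to its 5' end was 3816 bp upstream with a signal of 11.9 (rank 8488), and the replicate 1 list had 15.4 at that distance (rank 1332). The nearest one of replicate 2 was 11921 bp downstream, at rank 20325. Within 40 kb of that 5' end the pooled list held 17 regions, where an even spread along the chromosome would give 23.3. The replicate 1 list held 24 (23.2 if even) and the replicate 2 list held 21 (24.8 if even). The thresholded list held 1, the hpl-1 peak, where an even spread would give 0.677.

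The other heterochromatin protein gene, hpl-2, had a weaker region that was listed for replicate 1 and not for replicate 2. It lies on chromosome III from 10752195 to 10755530 on the minus strand, with a second annotated 5' end at 10755521. Its strongest promoter region covered 10756010 to 10756349, with the summit 650 bp upstream and a pooled signal of 14.6 (rank 4296). The replicate 1 list had 11.14 there (rank 4106) and the replicate 2 list had no region in the promoter window. The summit lies in an intron of rnf-113, which is annotated as a ubiquitin ligase gene, is transcribed in the same direction and ends 93 bp before hpl-2 begins. The promoter window of rnf-113 itself held no region in any list. The nearest region of replicate 2 was 1385 bp upstream of hpl-2 with a signal of 3.09 (rank 25537). No list had a region in the body of hpl-2. In the pooled list 27.3% of the genes with a promoter region had a higher signal than hpl-2, against 5.29% for hpl-1.

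**Figure D3:**
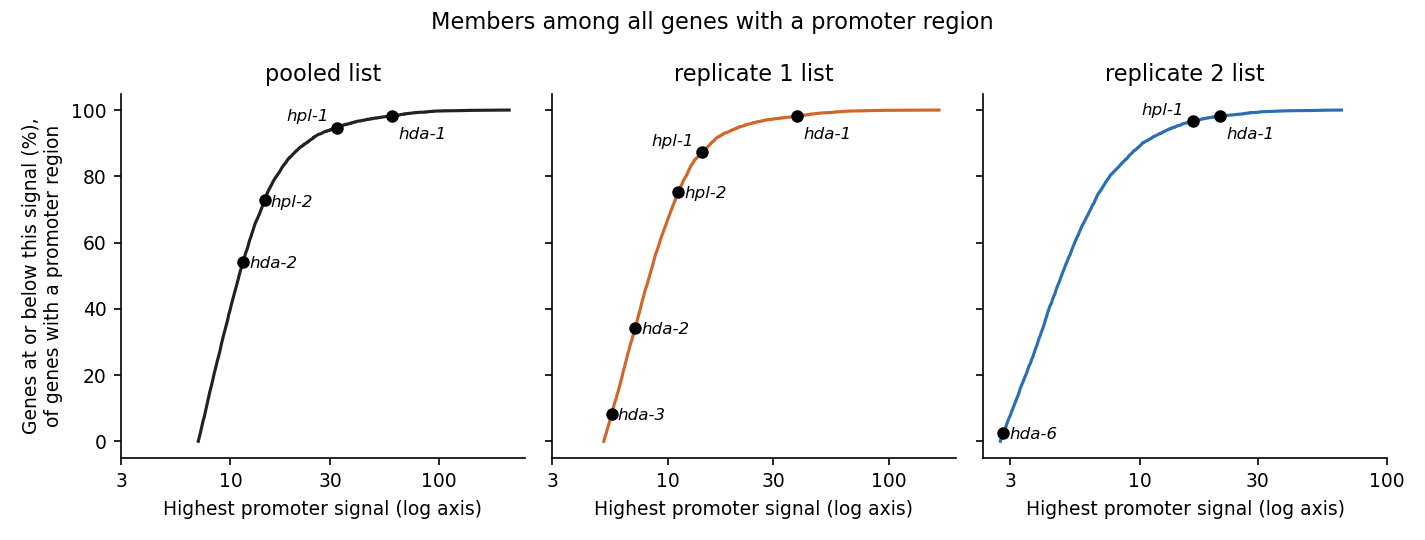
Cumulative share of genes by the highest signal in the promoter window (log axis), over the genes that have a promoter region in each list, with the members as labelled points. In the pooled list hda-1 and hpl-1 lie in the flat upper part of the curve with 59.4 and 32.4, and hpl-2 and hda-2 lie lower with 14.6 and 11.5.

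The remaining class I gene pair, hda-2 and hda-3, had low or no promoter regions. On chromosome II, hda-2 spans 8020780 to 8022561 on the minus strand. Its strongest pooled region lay at the start of the gene, 6 bp downstream of the 5' end, with a signal of 11.5 (rank 9325), close to the median of 11.01 over all genes with a promoter region. Neither replicate list had a region within 100 bp of it. A second pooled region, 742 bp upstream, had a signal of 7.25 (rank 28349), and the replicate 1 list had 7.11 there (rank 15992). The replicate 2 list had none in the window. Just upstream of hda-2 on the same strand, 70 bp away, ends swsn-7, a gene for a subunit of the SWI/SNF chromatin remodelling complex. Closely spaced worm genes of one strand are often transcribed together from the first promoter, so the promoters of such neighbours were looked up after the values of the members had been seen. The swsn-7 promoter had a pooled signal of 22.95 (rank 1151), 571 bp upstream of its 5' end. The replicate 1 list had 15.7 at 566 bp upstream. The highest region of replicate 2 in that window had 8.82 and lay farther off, 708 bp upstream. The pooled signal is above any value at hda-2 itself and below the threshold.

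For hda-3 the regions lay inside the gene and beyond both of its ends, and its promoter window held no pooled region. It spans 11912793 to 11917712 on the minus strand of chromosome I. The pooled list had 4 regions in its body, of which the highest were intronic, 3826 bp downstream of the 5' end with a signal of 17.9 (rank 2141) and 2666 bp downstream with 17.4 (rank 2380). The replicate 1 list had 14.3 (rank 1687) at the first and 14.4 (rank 1672), 2743 bp downstream, near the second. The replicate 2 list had no region at the first and 3.79 (rank 18609), 2823 bp downstream, for the second, while its own highest region in the gene had 7.88 (rank 2785) and lay 2001 bp downstream. In the promoter window only the replicate 1 list had a region, with a signal of 5.56 (rank 26302). Beyond the 3' end, with the summit at 11911043, the pooled list had a region of 22.4 (rank 1213), higher than any inside the gene. Near it the replicate 1 list had 13.7 (rank 1957), below its highest values inside the gene, 14.3 and 14.4. The replicate 2 list had 9.73 there (rank 1450), above all of its own values inside the gene. Upstream of the window, 1405 bp from the 5' end, the pooled list had 10.2 and the replicate 1 list 5.90, and replicate 2 had 3.33 at 1438 bp. The gene upstream on the same strand, fdps-1, annotated as farnesyl pyrophosphate synthase, ends 93 bp away, and its promoter had 15.4 in the pooled list (rank 3531), 12.4 in the replicate 1 list and none in the replicate 2 list.

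Neither class II gene had a pooled region in its promoter window. The gene hda-4 has 5' ends at 16729559 and 16739835 on the plus strand of chromosome X, and no list had a region in either window. Its body of 15209 bp, the longest of the family, held 6 pooled regions with signals from 7.42 to 14.8. The strongest, in an intron 3280 bp upstream of the second 5' end, had 14.8 in the pooled list (rank 4033) and 10.5 in the replicate 1 list (rank 5112). The nearest region of replicate 2, 3156 bp upstream of that 5' end, had 5.49 (rank 8180). The highest region of replicate 2 in the gene lay elsewhere, 3870 bp downstream of the first 5' end, with 7.02 (rank 3971). Near that one the pooled list had 9.76 (rank 14905). The gene hda-6, at 5356543 to 5364306 on the minus strand of chromosome IV, had no pooled region in its window or its body. Its only promoter region was in the replicate 2 list, 270 bp upstream with a signal of 2.81 (rank 28922), among the lowest of the 30000. In the pooled and replicate 1 lists the strongest region near hda-6 was outside the window. The pooled one lay 1729 bp upstream of the outermost hda-6 5' end, inside the neighbouring gene of the opposite strand, with 20.5 (rank 1474). Near it the replicate 1 list had 15.8 and the replicate 2 list had 4.37. The replicate 2 list had a higher value in an intron of hda-6, 7.25 (rank 3609). In introns of hda-6 the replicate 1 list had 7.23 (rank 15362) and 6.21 (rank 21469).

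No region inside the genes reached the threshold. No member had a thresholded peak with its summit in the gene body, 0 of 7, where 0.996% of all protein-coding genes did. A pooled region in the body was present at 4 of 7 members, hda-2, hda-3, hda-4 and hpl-1, against 43.2% of all genes. That of hda-2, 6 bp downstream of its 5' end, was also counted in its promoter window. The same holds in the replicate 1 list for the hda-3 region of 5.56 and the hpl-1 region of 5.52. Each of the pooled, replicate 1 and replicate 2 lists had 12 regions in the bodies of the members, or 0.327 per kb over their 36.7 kb, beside 0.278, 0.280 and 0.286 per kb over all protein-coding genes. The long gene hda-4 held 6 of the 12 in the pooled list, 4 in the replicate 1 list and 7 in that of replicate 2. Of the 12, 9 were in introns and 3 in exons in each list. The gene-body signals ran from 7.05 to 17.9 in the pooled list, from 5.20 to 14.4 in the replicate 1 list and from 2.85 to 7.88 in the replicate 2 list. An intronic region of hpl-1, 814 bp downstream of the 5' end, was in all of these lists, with 13.2 in the pooled list, 7.54 in the replicate 1 list 832 bp downstream and 7.21 in the replicate 2 list 904 bp downstream.

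**Figure D4:**
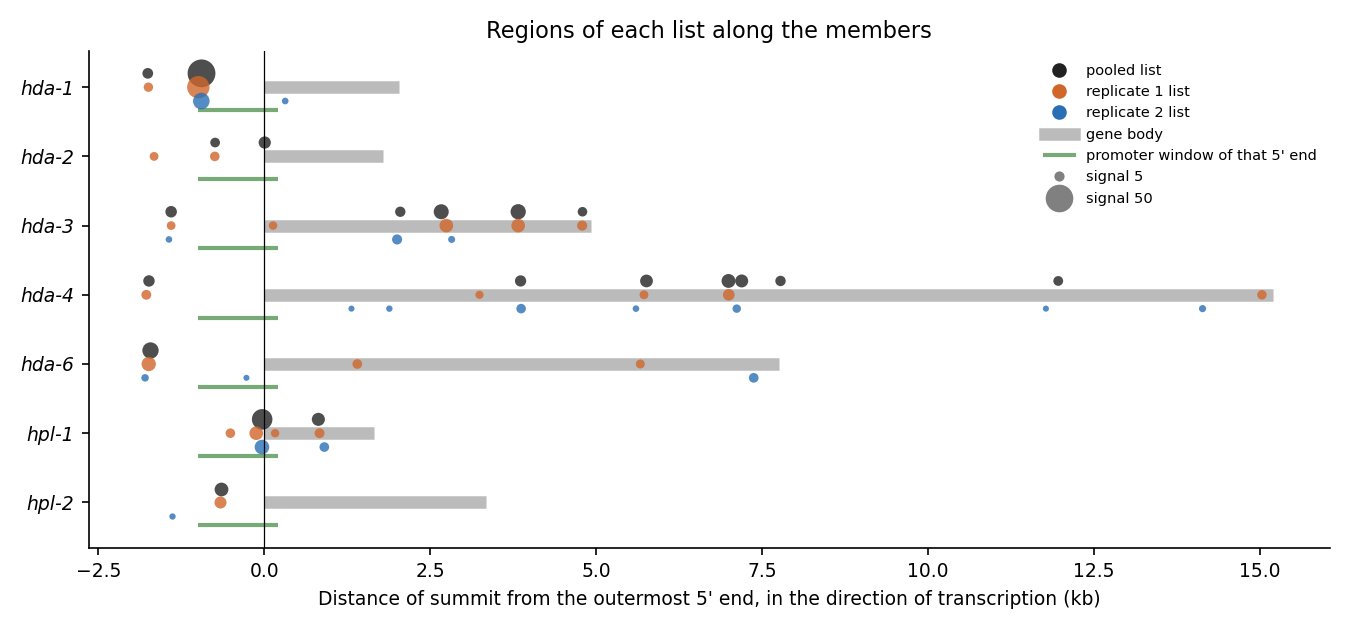
Summits of the pooled, replicate 1 and replicate 2 lists along each member. Distance is in kb from the outermost 5' end, in the direction of transcription. The area of a dot is proportional to its signal, grey bars are gene bodies and green lines promoter windows of that 5' end. The windows of other annotated 5' ends, as in hda-4 and hda-6, are not drawn. The largest pooled dots are those of hda-1 (59.4) and hpl-1 (32.4), followed by the one of hda-6 outside its promoter window (20.5). Most regions of hda-3 and hda-4 drawn here lie inside the genes. Regions beyond the 3' ends are not drawn, among them the pooled one of hda-3 (22.4).

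By their signals over the pooled, replicate 1 and replicate 2 lists, the thresholded promoter peaks most like that of hda-1, out of 340 others matched in both replicates, were those nearest to clec-126, sor-3 and npp-8, at Euclidean distances of 0.041, 0.074 and 0.124 on the log2 scale. Their pooled signals were 59.2, 60.2 and 57.1. At the clec-126 and sor-3 peaks, 33.5% and 35.9% of the words of 32 bases recurred elsewhere in the genome, and at npp-8 none did. Those most like hpl-1 were nearest to atp-3, rps-15 and unc-115, at distances of 0.046, 0.058 and 0.084, with pooled signals of 33.0, 32.6 and 33.9. Like hpl-1, these peaks were higher in replicate 2, with 13.996 and 16.2 in the replicate 1 and replicate 2 lists at atp-3. Signals of this kind were used to choose these genes, so the likeness is a description.

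Genes that act with these proteins, and other deacetylase genes, were described from 5 lists of 40 genes in all, here called partner genes. A thresholded promoter peak was present at 4 of the 40 (10%, beside 2.49% of all protein-coding genes) and a pooled promoter region at 30 (75%, beside 42.2%). The median pooled signal over the 30 was 16.4, and 11.01 over all genes with a region. These lists too were chosen with earlier results of these data known, so nothing is read from these differences. The nucleosome remodelling and deacetylase or MEC complex list had 1 of 9, lin-53, a histone-binding partner of HDA-1, with 38.8 in the pooled list, 28.2 in the replicate 1 list and 11.2 in that of replicate 2. The list of H3 lysine methylation and heterochromatin had 1 of 9, the methyltransferase gene set-25, with 44.3, 37.4 and 8.09 in the same order. At the set-25 peak 100% of the words of 32 bases recurred elsewhere in the genome. The DREAM and synMuv B list, named for a repressor complex of the cell cycle, had 2 of 8: lin-54, a DNA-binding subunit, with 43.8, 20.7 and 19.4, and the E2F gene efl-1 with 34.7, 26.1 and 3.04. The efl-1 value of replicate 2 is from a region at rank 26106 whose summit was 315 bp upstream, whereas the pooled summit was 142 bp upstream. The SIN3 and CoREST list (7 genes) and the other deacetylases (7 genes, sirtuins included) had none, with highest pooled signals of 20.7 at athp-1 and 21.8 at sir-2.2. The lin-53, efl-1 and lin-54 peaks were shared with the promoter windows of nra-2, fbxa-90 and rpl-12. Counted by the nearest 5' end, set-25 and efl-1 were left.

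**Figure D5:**
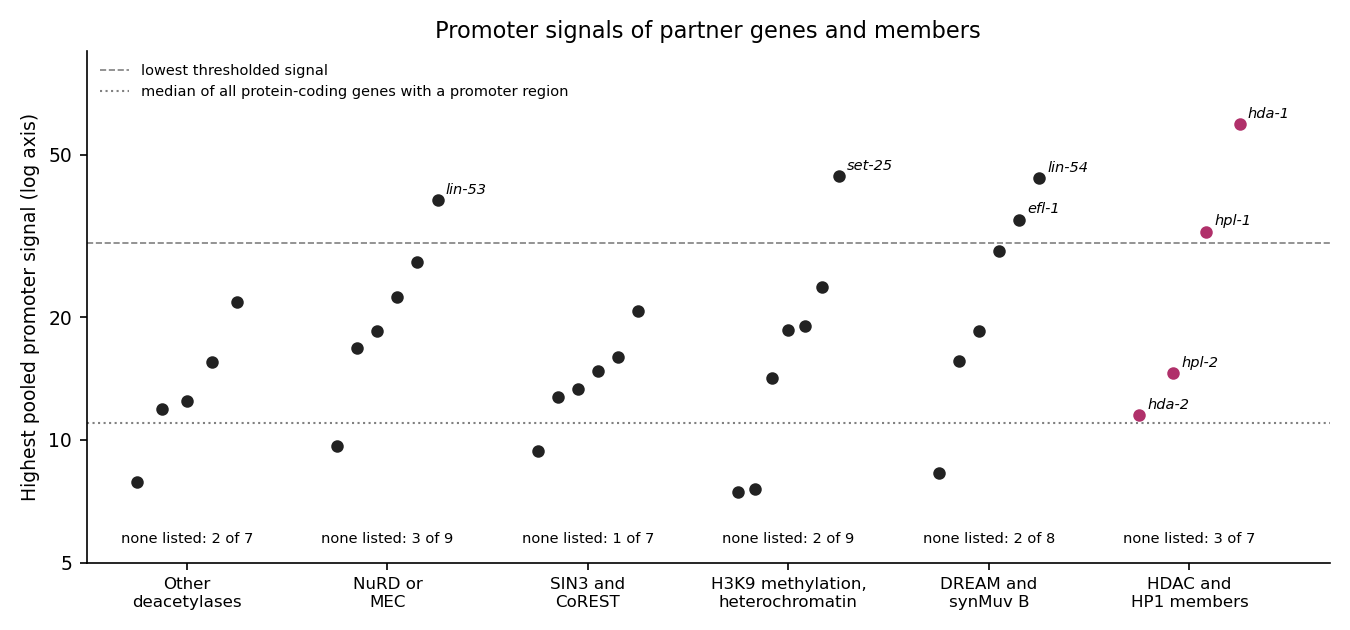
Highest pooled promoter signal (log axis) of each gene of the partner lists and of the members, with the number of genes that have no pooled promoter region under each list. Those of set-25, lin-54, lin-53, efl-1, hda-1 and hpl-1 lie above the lowest thresholded signal of 30.4 (dashed line), and the dotted line marks the median of 11.01 over all genes with a promoter region.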

How the data were processed

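Peak lists of 4 ChIP-seq libraries (2 biological replicates with 2 technical libraries each, 1 group) were used on build ce11. Per the labels and the deposited notes, technical libraries were merged, regions were called per biological replicate and on both together against 1 control, and the thresholded list was derived from these lists. The aligner, caller and their versions, and the cutoff of the list, were not given in the sources used here. For each region, the signal and its −log10 q-value were deposited by the authors and used as they stand. No reads were counted and depth is unknown, so no interval was computed. The ce10 lists were not used here.

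Regions were placed by summit on the Ensembl release 115 annotation of WBcel235 (the build ce11). Sequences were read from the RefSeq genome of WBcel235. Shares over 19973 protein-coding genes are the background. Window placement was tested on simulated regions. Python 3.11.15, pandas 2.3.3 and numpy 2.4.6 were used. Members, partner lists and words were chosen with earlier results of these data known, and nothing was tested. Other genes are named by rule: those sharing a member's strongest region, partner genes with thresholded peaks, and the 3 peaks most like each thresholded member peak. The highest partner genes of lists without a peak, and genes upstream on the same strand, were added after their values were seen. So were partner genes counted from a single replicate list. The 7 members were all kept whatever their values.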

Additional observations from a re-analysis of the deposited data

How the results depend on the processing

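The count of members with a thresholded promoter peak was 2 of 7. It was 1 (hpl-1) with a window of 500 bp upstream to 100 bp downstream and by the nearest 5' end, and 1 (hda-1) among nuclear peaks above their median signal. From 1 replicate list alone, with its 689 highest regions, it ranged from 1 (without replicate 2, hpl-1 lost) to 2 (without replicate 1). Members with a pooled promoter region numbered 4, but 2 in the narrow window and 7 in a window of 2000 bp upstream to 500 bp downstream. Members with a promoter region in both replicate lists numbered 2, but 1 in the narrow window, 5 in the wide window and 1 by the nearest 5' end. Thresholded gene-body peaks numbered 0 by summit and 1 (hpl-1) by interval overlap of 1 bp. Partner genes with a thresholded promoter peak numbered 4, but 2 by the nearest 5' end and 0 among peaks above the median signal. They numbered 5 without replicate 2, where egl-27 joined the 4. Without replicate 1 they numbered 3, namely egl-27, lin-9 and lin-54, so lin-53, set-25 and efl-1 were lost. Counting the promoter of an upstream same-strand gene, an alternative chosen after seeing the data, gave 2, 5 and 3 members for the thresholded, pooled and both-replicate counts. Shares over all protein-coding genes were not computed for these other settings. A wider window can only add regions, at any gene, so nothing about the members is read from these counts. The alternatives not named here left the counts within 1.5 times. Member signals stayed the same in 17 of 18 values under another window, 5' end or overlap. In a single replicate list, whose scale differs, 1 of 12 did. These counts cover only cases where both settings had a region, mostly the same pooled region found again, so little could differ. Outside them, the narrow window left hda-1 and hpl-2 without a pooled promoter region. The wide window gave one to hda-3, hda-4 and hda-6, with signals of 10.2, 10.1 and 20.5. A signal counted as the same if it was unchanged or moved by less than the SD of the 2 replicate signals, which are not scaled to each other. In a single replicate list some members likewise lost or gained a region. Where a setting had no region for a member, no value could be given. Each ranked list holds 30000 regions and depth is unknown, so a member without a region is not shown to lack the protein.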
